A study of Mus musculus with 11 samples.

Results

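A set of 10 genes of fetal liver progenitors was followed in newborn mouse liver in which the Notch pathway had been switched on. They are Afp, Lin28b, Igf2bp1, Igf2bp2, Igf2bp3, Hmga1, Hmga2, Mycn, Mdk and Ptn, and they were picked by name: every probe of the array whose symbol, or whose current symbol through its accession, is one of these was used. The 10 genes have 20 probes on the array, out of 20811 genes with a symbol, and all 10 were among the 15763 genes that could be tested. Afp stands apart within the set, because its promoter is also the one that drives the Cre recombinase of the mutants.

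Whole liver RNA was labelled with a single dye and hybridised to Agilent whole mouse genome arrays, 1 array a sample. Mutant pups carried the transgene AFP-Cre, in which the promoter of alpha-fetoprotein drives Cre, together with Rosa26-lsl-NICD, an allele that makes NICD, the active intracellular part of Notch, once Cre has cut out a block to its transcription. Control pups carried Rosa26-lsl-NICD alone, and both genotypes were on a hybrid 129 x C57BL/6 background. The groups were 3 mutants and 3 controls on postnatal day 2, and 3 mutants and 2 controls on the day of birth, day 0. The Rosa26 allele is common to all 4 groups and no group carried AFP-Cre without it, so the presence of Cre and the making of NICD cannot be told apart. NICD can be made in cells that use or once used the AFP promoter, in liver mainly hepatocytes and their precursors, and in their descendants. The labels do not say whether the samples of a group came from separate litters or from single or pooled pups, so p-values measure the spread between these samples.

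These genes are called oncofetal because they are active in embryonic tissue, fall silent after birth, and return in tumours such as hepatocellular carcinoma. Several of them are joined by one circuit: Lin28b blocks the maturation of let-7 microRNAs, and let-7 in turn binds the messages of Lin28b, Hmga2, Igf2bp1, Igf2bp2, Igf2bp3 and Mycn and lowers them. In liver, let-7 rises and this set declines as hepatoblasts mature. Mdk and Ptn are a pair of related secreted growth factors that bind heparin, and Afp is the main plasma protein of the fetal liver.

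A let-7 microRNA recognises its targets mostly through its seed, bases 2 to 8. The mature sequences below, from RefSeq on GRCm38.p6, are shown because the seed, in capitals, was the same in all 9 members of the family in that table (let-7a to let-7g, let-7i and miR-98).
mmu-let-7a-5p: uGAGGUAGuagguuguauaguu
mmu-let-7g-5p: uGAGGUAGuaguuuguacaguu
mmu-miR-98-5p: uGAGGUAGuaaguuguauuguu
The complement of that seed, CTACCTC, lies in 2 of the 20 probes of the 10 genes and in 0.306% of the 41174 probes of the array. A pair of genes is thereby read, in part, at a stretch of message that holds a let-7 seed match. The windows below come from the probes and are written in the sense of the message, with the match in capitals; the Hmga2 probe covers chr10:119764743-119764802 and the Igf2bp1 probe chr11:95774188-95774247, both on the minus strand of build mm8.
Hmga2: aatcaaaacacactaCTACCTCttaagtcc
Igf2bp1: tggttttaatCTACCTCttagcaaa
A match in a probe shows only that these letters are in the measured stretch. Small RNAs were not measured here, so no level of let-7 can be given.

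Promoter windows from RefSeq (GRCm38.p6, 250 bases before to 50 after the start of the gene) were matched for 8 of the 10 genes. Those of 3 genes are shown: Afp, whose promoter is the source of the Cre driver, and Mycn and Hmga2, which had large differences on both days. The Afp window is chr5:90490464-90490763 on the plus strand, the Mycn window chr12:12941787-12942086 and the Hmga2 window chr10:120476420-120476719, both on the minus strand. Capitals mark a match, on either strand, to GTTAAT (a motif of promoters active in hepatocytes), TATAAA (the TATA box), TGGGAA (the core bound by RBPJ, the DNA partner of NICD) or CACGTG (the E-box bound by Myc family dimers).
Afp: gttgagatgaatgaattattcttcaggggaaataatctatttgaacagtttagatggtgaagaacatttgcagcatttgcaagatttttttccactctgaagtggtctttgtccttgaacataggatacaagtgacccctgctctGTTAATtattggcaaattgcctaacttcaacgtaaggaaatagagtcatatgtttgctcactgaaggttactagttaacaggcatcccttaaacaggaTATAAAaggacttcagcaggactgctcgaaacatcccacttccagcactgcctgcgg
Mycn: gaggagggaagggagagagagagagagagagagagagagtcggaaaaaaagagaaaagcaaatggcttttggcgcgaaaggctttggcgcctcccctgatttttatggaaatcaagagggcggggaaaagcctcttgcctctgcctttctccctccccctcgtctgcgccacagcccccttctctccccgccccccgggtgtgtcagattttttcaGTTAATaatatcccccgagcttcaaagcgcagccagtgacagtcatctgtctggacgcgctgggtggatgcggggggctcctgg
Hmga2: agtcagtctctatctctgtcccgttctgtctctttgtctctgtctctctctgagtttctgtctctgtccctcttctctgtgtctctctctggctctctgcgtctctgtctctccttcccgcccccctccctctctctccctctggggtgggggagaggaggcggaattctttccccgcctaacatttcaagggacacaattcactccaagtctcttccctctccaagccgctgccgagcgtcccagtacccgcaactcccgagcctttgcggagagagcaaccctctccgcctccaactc
The Afp window held GTTAAT at position -105 and TATAAA at position -7, counted from the first letter of each match to the start of the gene. Mycn held GTTAAT at position -34, and Hmga2 held none of the 4 motifs. TGGGAA was found, as its complement, in 1 of the 8 genes with a window, Ptn, at position -84; 25.6% of all 32851 windows held it. GTTAAT was held by 7.10%, TATAAA by 13.6% and CACGTG by 7.15% of those windows, and no matches overlapped in the windows of these genes. CACGTG was found in Lin28b at position -49 and in Igf2bp3 at positions -23 and 5.

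Levels below are log2 of the signal relative to the 75th percentile of the same array, so 0 is the brightness of that percentile. That percentile ran between 607.7 and 1302 in signal units, and 63.3% to 68.6% of spots were well above background. The third day 0 mutant stood apart: it correlated with its group at 0.952 at the lowest, and 1058 genes lay at least 2-fold outside all other arrays on it, against at most 72 on any other array. By their sex-linked probes the day 0 mutants were all female and the day 0 controls both male, so sex and genotype cannot be told apart at birth; on day 2 each genotype had 2 females and 1 male. Replicates 1, 2 and 3 sat on slides 1, 2 and 3, slide 3 held no day 0 control, and each group kept its own position on the slides, so position and group cannot be told apart.

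In the mutants 5 of the 10 genes, Igf2bp1, Igf2bp2, Hmga2, Mycn and Mdk, were higher over both days together, and none was lower (limma, Benjamini-Hochberg adjusted p under 0.05 over all genes). In that comparison 15.8% of all genes passed, 8.83% as higher and 6.97% as lower. These 5 are also the members in which every mutant lay above every control on both days, a pattern shown by 7.33% of all genes. On day 2 Igf2bp2, Hmga2, Mycn and Mdk passed as higher and Afp as lower, where 16.3% of all genes passed, 9.68% as higher and 6.61% as lower. Every day 2 mutant also lay below every day 2 control in Afp and Lin28b, a pattern of 24.7% of all genes on that day, and 20.8% showed the opposite one. At birth Hmga2 and Mycn passed, where 2.32% of all genes passed, 1.61% as higher and 0.717% as lower, and 16.9% had every mutant above every control; with slide as a block 1 did, Hmga2, and Mycn was at 1.72 (adjusted p 0.0654). Whole liver was measured, so more cells of a kind and more RNA per cell cannot be told apart in any of these results.

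**Figure D1:**
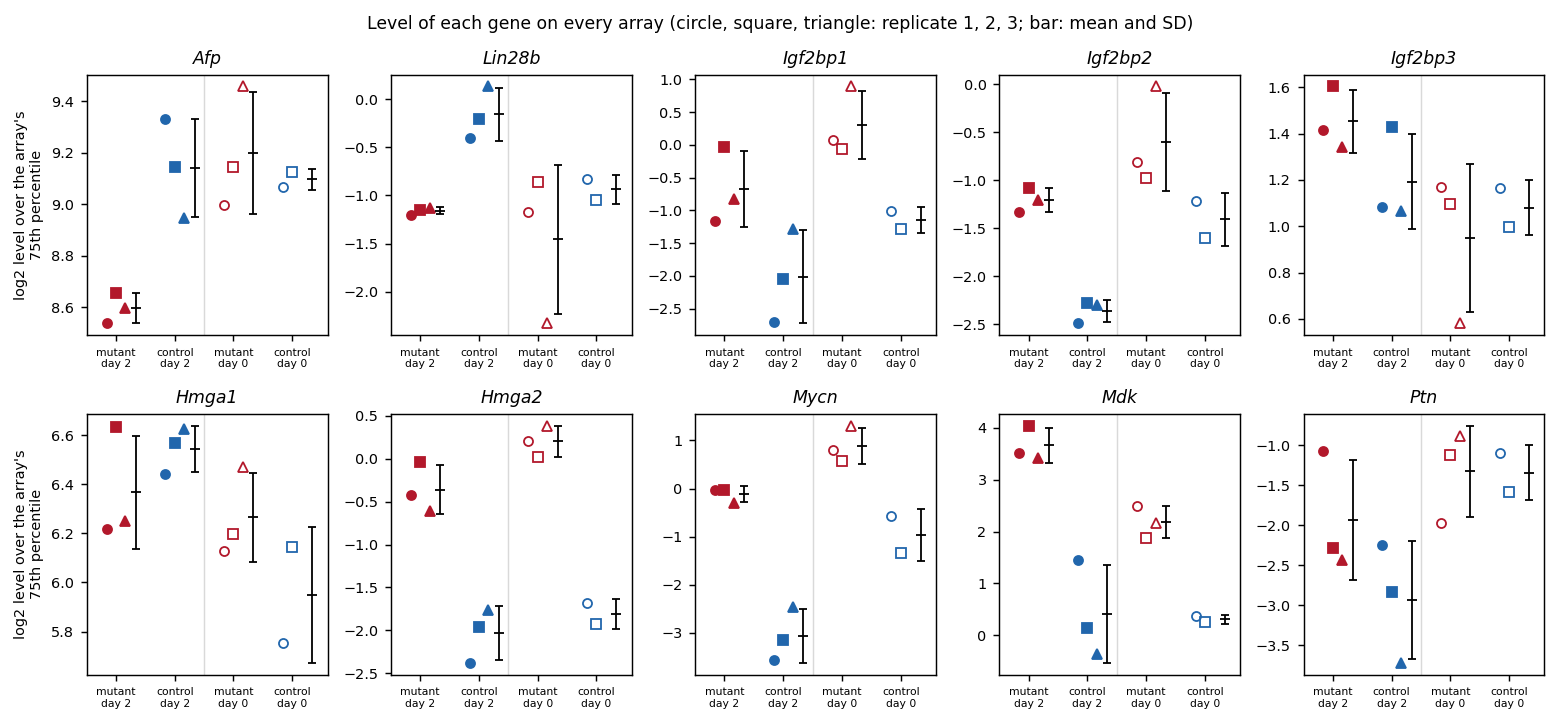
Level of each of the 10 genes on every array, as log2 of the signal over the array's 75th percentile, with mutants in red left of controls in blue, day 2 filled and day 0 open. In Igf2bp1, Igf2bp2, Hmga2, Mycn and Mdk every mutant lies above every control of its day, and in Lin28b and Afp every day 2 mutant lies below every day 2 control; bars are mean and SD.

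**Figure D2:**
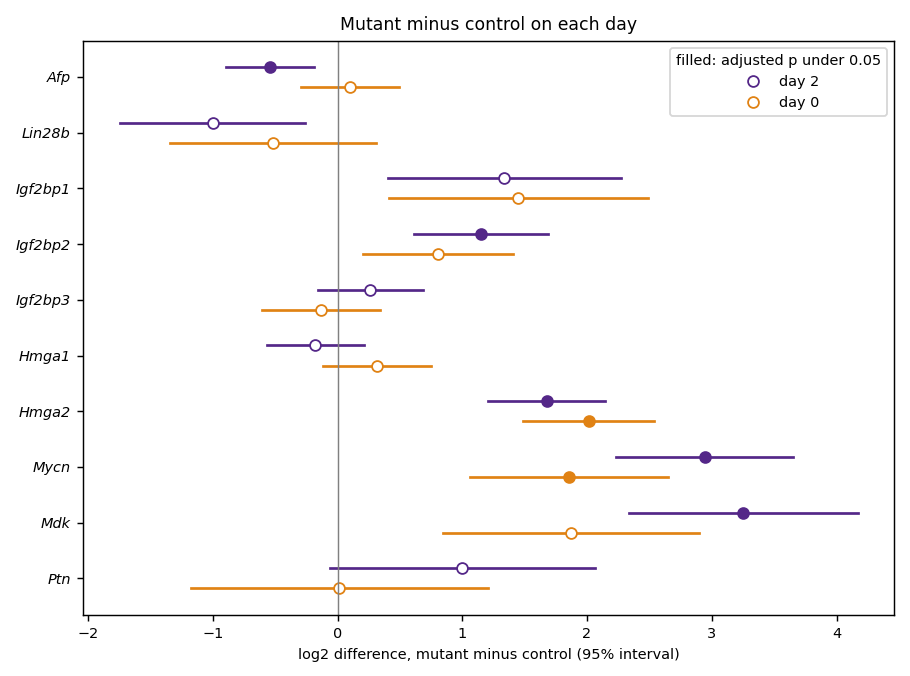
Mutant minus control difference of each gene on day 2 (purple, upper) and day 0 (orange, lower), on the log2 scale with 95% intervals from limma; filled points have an adjusted p under 0.05. Mycn and Mdk have the highest day 2 values, 2.94 and 3.25.

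Lin28b, the RNA-binding protein at the head of the let-7 circuit, was not higher in the mutants. Its level was -1.20, -1.15 and -1.13 in day 2 mutants, against -0.41, -0.20 and 0.13 in day 2 controls. At birth it was -1.18, -0.86 and -2.33 in mutants, against -0.83 and -1.04 in controls. The day 2 groups did not overlap and the day 0 groups did, with the third day 0 mutant far below the rest. The difference was -1.0 ± 0.33 (SE) on day 2, with an adjusted p of 0.0684, and -0.76 ± 0.25 over both days, with an adjusted p of 0.0679 in limma. Both missed the threshold. Both passed when that mutant was left out (day 2, -1.0, adjusted p 0.00264; both days, -0.54, adjusted p 0.0150) and when the second was (0.0451 and -0.91 with 0.0279). Lin28b also passed with normexp background correction (adjusted p 0.0325 on day 2, 0.0390 over both days) and with array quality weights (0.00210 and 0.00961). At birth the difference was -0.52 ± 0.37 (adjusted p 0.545). All of this rests on 1 probe, at chr10:45065577-45065636; the other 2 probes of Lin28b were not well above background on any of the 11 arrays.

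The Igf2bp genes encode RNA-binding proteins that stabilise fetal messages, Igf2 among them. Igf2bp2, read by 1 probe at chr16:21974443-21974502, was -1.34, -1.09 and -1.21 in day 2 mutants, against -2.49, -2.28 and -2.30 in day 2 controls. At birth it was -0.81, -0.97 and -0.02 in mutants, against -1.21 and -1.60 in controls. Mutants lay above controls throughout, with a difference of 1.15 ± 0.24 on day 2, a 2.22-fold higher level (limma, adjusted p 0.0112). Over both days the difference was 0.98 ± 0.18 (adjusted p 0.00617), and at birth alone it was 0.81 ± 0.27 (adjusted p 0.183). Within the slides the day 2 difference was 1.16, 1.20 and 1.09.

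Igf2bp1 was more variable. Its brightest probe, at chr11:95779302-95779361, gave -1.17, -0.03 and -0.83 in day 2 mutants, against -2.71, -2.05 and -1.28 in day 2 controls. At birth it gave 0.08, -0.06 and 0.89 in mutants, against -1.01 and -1.28 in controls. The groups did not overlap, though the first day 2 mutant was close to the third day 2 control. The difference over both days was 1.39 ± 0.31, a 2.63-fold higher level (limma, adjusted p 0.0157), while neither day passed alone (day 2, 1.34 ± 0.41, adjusted p 0.0562; day 0, 1.45 ± 0.46, adjusted p 0.166). Day 2 passed in 9 of 25 alternatives, among them slide as a block (1.34, adjusted p 0.0481), without the third day 2 control (1.70, 0.0262) and without the third day 0 mutant (0.0316). The call over both days was lost without the second day 0 control (1.33, adjusted p 0.0706) and with pup sex as a covariate (1.48, adjusted p 0.0646). The other 2 probes were also higher over both days when fitted probe by probe: the one with the let-7 seed match shown above by 1.14 ± 0.28 (adjusted p 0.0271) and the remaining one by 1.57 ± 0.30 (adjusted p 0.00891).

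Igf2bp3, of the same family, did not pass on day 2 or over both days. Its main probe, at chr6:49015297-49015356, read 1.42, 1.60 and 1.34 in day 2 mutants, against 1.08, 1.43 and 1.07 in day 2 controls. At birth it read 1.17, 1.10 and 0.58 in mutants, against 1.16 and 1.00 in controls. The groups overlapped on both days. The difference over both days was 0.06 with a 95% interval from -0.25 to 0.38 (limma, adjusted p 0.807), and on day 2 it was 0.26 ± 0.19 (adjusted p 0.385). Its other 2 probes gave 0.13 ± 0.12 and 0.10 ± 0.14 over both days in the probe by probe fit.

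The Hmga genes encode small chromatin proteins that bend AT-rich DNA and are abundant in dividing embryonic cells. Hmga2 had -0.43, -0.04 and -0.61 in day 2 mutants, against -2.38, -1.96 and -1.76 in day 2 controls, at the probe that holds the let-7 seed match. At birth it had 0.21, 0.03 and 0.39 in mutants, against -1.68 and -1.93 in controls. The lowest mutant of either day was above the highest control of either day. Hmga2 was higher in mutants by 1.84 ± 0.16 over both days, a 3.59-fold higher level (limma, adjusted p 8.79e-05), by 1.68 ± 0.21 on day 2 (adjusted p 0.000836) and by 2.01 ± 0.23 at birth (adjusted p 0.00322). The day 0 call was lost without the second day 0 control (1.89, adjusted p 0.0547) and with pup sex as a covariate (2.17, adjusted p 0.0608). A dimmer probe at chr10:119765674-119765733, well above background on 10 of 11 arrays, gave 1.82 ± 0.22 over both days in the probe by probe fit (adjusted p 0.000775). The remaining probe was not well above background on any array.

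Hmga1, read by 1 probe at chr17:27291187-27291246, was 6.22, 6.63 and 6.25 in day 2 mutants, against 6.44, 6.57 and 6.62 in day 2 controls. At birth it was 6.13, 6.20 and 6.47 in mutants, against 5.75 and 6.14 in controls. The groups overlapped on both days. The difference was 0.07 over both days with a 95% interval from -0.22 to 0.36 (limma, adjusted p 0.774), -0.18 ± 0.17 on day 2 (adjusted p 0.531) and 0.32 ± 0.19 at birth (adjusted p 0.483). The upper end of the first interval lies below the lower end of that of Hmga2, 1.49.

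Mycn encodes a transcription factor of the Myc family that drives growth in embryonic progenitors. Its brightest probe, at chr12:12962373-12962432, read -0.02, -0.03 and -0.31 in day 2 mutants, against -3.57, -3.15 and -2.46 in day 2 controls. At birth it read 0.79, 0.58 and 1.31 in mutants, against -0.58 and -1.34 in controls. The day 2 mutants were all above the day 0 controls as well. The difference was 2.94 ± 0.32 on day 2, a 7.68-fold higher level (limma, adjusted p 0.000367), and 2.40 ± 0.24 over both days (adjusted p 0.000202). At birth it was 1.85 ± 0.35 (adjusted p 0.0305). That day 0 call held when the third or the first day 2 control, or the second or the third day 0 mutant, was left out, and was lost without any of the other 7 arrays, with adjusted p-values up to 0.294, the value without the second day 0 control (difference 1.47); with pup sex as a covariate it was 0.110.

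The other Mycn probe, at chr12:12963492-12963551, was dimmer and did not repeat the day 2 pattern. It read -4.76, -4.31 and -5.25 in day 2 mutants, against -4.07, -5.99 and -6.69 in day 2 controls, of which 1 was well above background. At birth it read -4.11, -3.81 and -3.41 in mutants, against -5.04 and -5.01 in controls. The groups overlapped on day 2 and not at birth. Fitted probe by probe, its difference was 0.81 ± 0.56 on day 2 (adjusted p 0.390), 1.25 ± 0.63 at birth (adjusted p 0.430) and 1.03 ± 0.42 over both days (adjusted p 0.151). The size of the Mycn difference therefore rests on the brighter probe.

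Mdk encodes midkine, a secreted growth factor of developing epithelia that reappears in liver cancer. Its brightest probe, at chr2:91730705-91730764, read 3.51, 4.04 and 3.43 in day 2 mutants, against 1.46, 0.14 and -0.36 in day 2 controls. At birth it read 2.49, 1.87 and 2.17 in mutants, against 0.36 and 0.25 in controls. Every mutant exceeded every control of either day, and the first day 2 control was the highest control. The difference was 3.25 ± 0.41 on day 2, a 9.52-fold higher level (limma, adjusted p 0.000854), and 2.56 ± 0.31 over both days (adjusted p 0.000627). At birth it was 1.87 ± 0.46 and missed the threshold (adjusted p 0.0746). It passed, at the same difference, without the first (adjusted p 0.0141) or the third day 2 control (0.0462), arrays that enter this comparison only through the shared spread.

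The second Mdk probe lies across 211 bases of the genome, chr2:91730487-91730697, more than its 60 letters, so it reads a stretch split in the genome. It read 1.46, 2.16 and 1.5 in day 2 mutants, against -2.87, -2.71 and -3.21 in day 2 controls. In newborns of day 0 it read -0.02, -0.38 and -0.30 in mutants, against -2.44 and -2.69 in controls. The first day 2 control was not raised at this probe. In the probe by probe fit the difference was 4.64 ± 0.23 on day 2 (adjusted p 1.07e-05) and 2.33 ± 0.25 at birth (adjusted p 0.00276). The day 2 difference exceeded the day 0 difference by 2.31 ± 0.34 (adjusted p 0.0379), which at the brightest probe was 1.38 ± 0.61 (adjusted p 0.339).

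**Figure D3:**
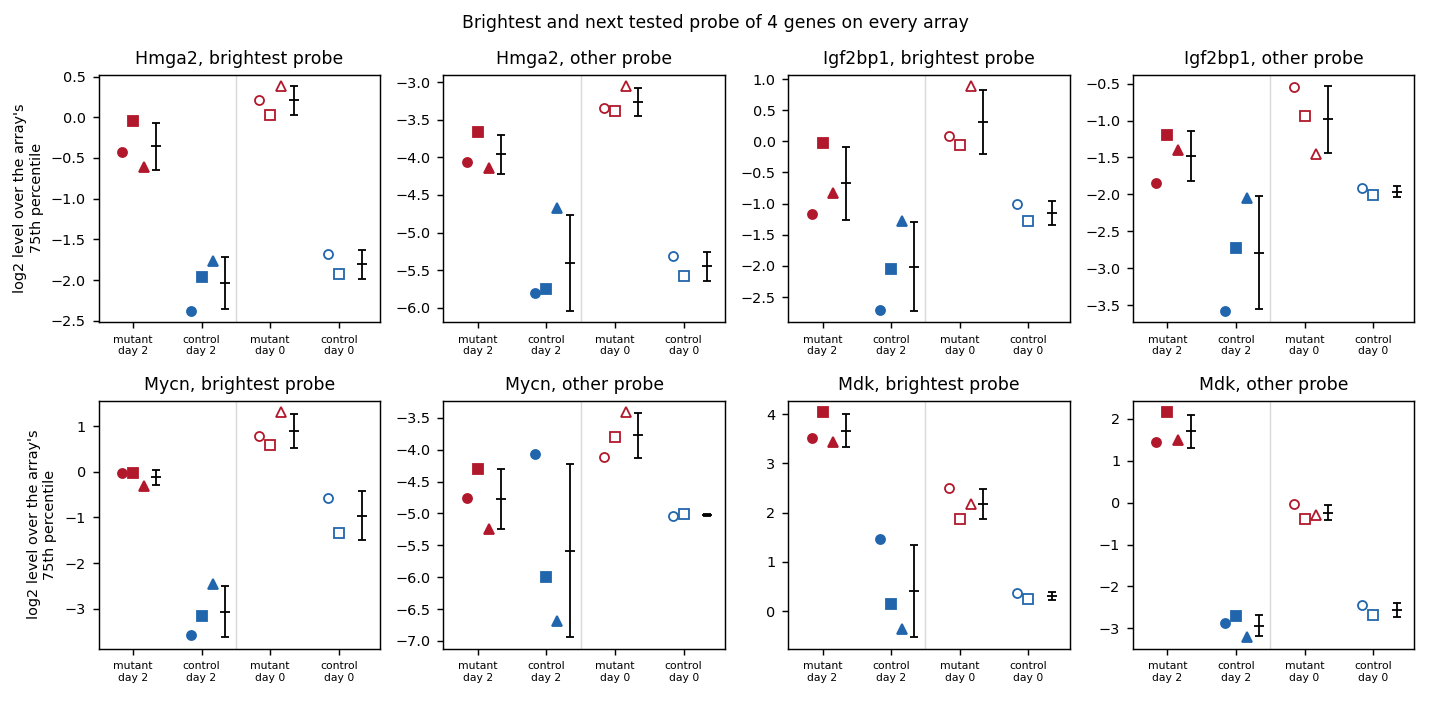
Brightest and next tested probe of Hmga2, Igf2bp1, Mycn and Mdk on every array, as log2 level over the array's 75th percentile, mutants in red left of controls in blue, with mean and SD. Both probes of Hmga2 and Mdk separate the genotypes on both days, and the dimmer Mycn probe does not on day 2.

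Ptn, pleiotrophin, is the relative of midkine. Its single probe spans 1947 bases, chr6:36671538-36673484, also split in the genome. It is shown with the second Mdk probe because the letters of these related genes resemble each other there; over the best ungapped alignment 34 of 57 bases, in capitals, are identical.
Mdk: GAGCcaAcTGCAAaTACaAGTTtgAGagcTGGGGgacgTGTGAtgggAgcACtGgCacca
Ptn: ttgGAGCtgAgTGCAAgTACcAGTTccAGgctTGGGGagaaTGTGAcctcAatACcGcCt
Ptn read -1.07, -2.29 and -2.44 in day 2 mutants, against -2.25, -2.83 and -3.72 in day 2 controls. On day 0 it read -1.97, -1.12 and -0.89 in mutants, against -1.10 and -1.58 in controls. The groups overlapped on both days. The difference over both days was 0.51 with a 95% interval from -0.29 to 1.30 (limma, adjusted p 0.386), and on day 2 it was 1.00 ± 0.47 (adjusted p 0.188). The upper end of the first interval lies below the lower end of the interval of Mdk at its brightest probe, 1.87.

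Afp, the fetal albumin relative, was among the brightest probes of every array, ranking between 16 and 22 from the top. It is spotted 10 times at chr5:91583955-91584014. It read 8.54, 8.66 and 8.60 in day 2 mutants, against 9.33, 9.14 and 8.95 in day 2 controls. At birth it read 9.0, 9.14 and 9.46 in mutants, against 9.07 and 9.13 in controls. The day 2 mutants were below all other arrays. The difference on day 2 was -0.54 ± 0.16 (limma, adjusted p 0.0435), and over both days it was -0.22 ± 0.12 (adjusted p 0.247).

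That day 2 value depends on how the arrays are scaled. Before scaling, the Afp signal was nearly level over the arrays: 424545 to 483424 in day 2 mutants, against 449141 to 524616 in day 2 controls, and 427136 to 489724 in day 0 mutants, against 421703 to 461370 in day 0 controls. These values are 64.8% to 78.8% of the ceiling of the scanner, and no Afp spot was marked as saturated. The highest Afp signal was 1.24 times the lowest, while the 75th percentile by which it is divided varied 2.14 times and was highest on the day 2 mutant arrays. With quantile normalization the day 2 difference was 0.034 (adjusted p 0.871), and in the authors' deposited table, fitted in the same way, it was -0.025 (adjusted p 0.916). With slide as a block the adjusted p was 0.0754, with pup sex as a covariate 0.0561, with no filter on dim probes 0.0666, and with the percentile taken over probes above background on all arrays 0.0777. With 1 array left out at a time, the call held only when the third day 2 control or the first or the third day 0 mutant was left out, and reached 0.146 without the first day 2 control (difference -0.45). Among the 50 genes with the highest mean level, Afp included, all 50 were lower in day 2 mutants under the main scaling, with a median of -0.52; this set was chosen after the values were seen.

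**Figure D4:**
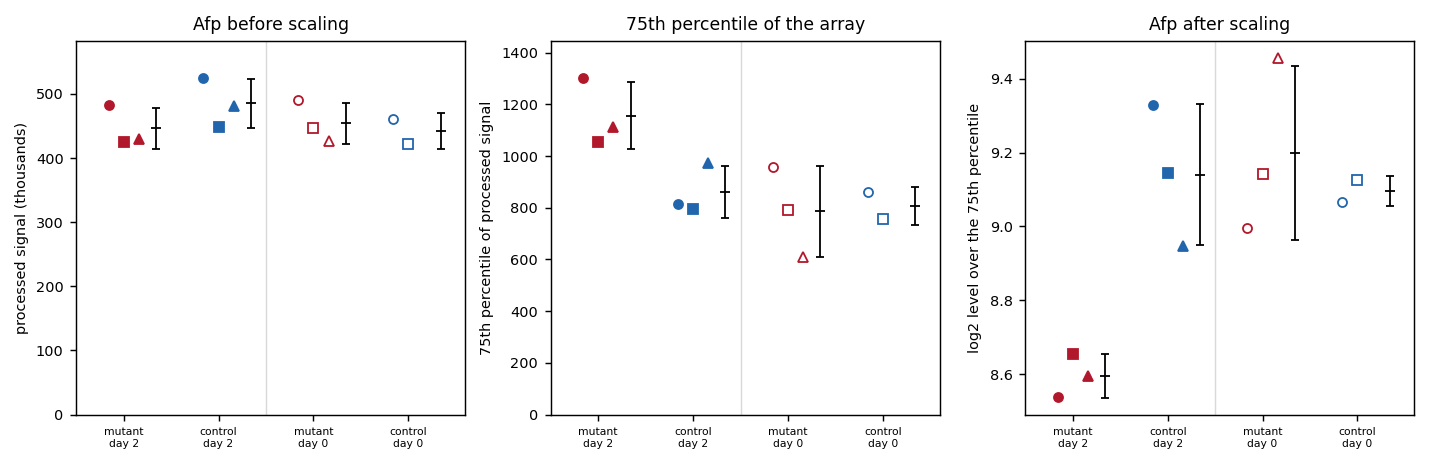
Afp signal before scaling (left), the 75th percentile of each array's signal (middle) and the scaled log2 Afp level (right) on the 11 arrays, mutants in red left of controls in blue, with mean and SD. The unscaled signal is level across groups, and the day 2 mutant arrays have the highest percentiles and the lowest scaled values, 8.54 to 8.66.

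Between birth and day 2 few of the genes passed the test. In mutants 1 of the 10, Mdk, was higher on day 2 and 2, Mycn and Afp, were lower, where 20.7% of all genes passed, 9.44% as higher and 11.3% as lower. Mdk was higher by 1.48 ± 0.41 (limma, adjusted p 0.0332) and its second probe by 1.94 ± 0.23 (adjusted p 0.00138, probe by probe). Mycn was lower in day 2 than in day 0 mutants by a difference of -1.01 ± 0.32 (adjusted p 0.0498), at the edge of the threshold. Afp was lower by -0.60 ± 0.16 (adjusted p 0.0273), which was 0.018 with quantile normalization (adjusted p 0.916). None of the 3 calls held without any 1 of the day 2 mutants: without the first, the second or the third, the adjusted p was 0.0686, 0.103 and 0.0715 for Mdk, 0.0949, 0.101 and 0.146 for Mycn, and 0.0775, 0.0643 and 0.0846 for Afp. The Mdk call was also lost without either day 0 control or the second or the third day 0 mutant (adjusted p up to 0.0791), and the Mycn call without either day 0 control, the second day 2 control or any day 0 mutant (up to 0.114). The Mycn call was lost as well with slide as a block (0.0538), with quantile normalization (0.0521), with no filter on dim probes (0.0688) and at the dimmer probe (0.225). Hmga2 differed by -0.56 ± 0.21 and did not pass (adjusted p 0.0824).

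In controls 1 of the 10 genes, Mycn, passed between the days, where 11.3% of all genes passed, 5.54% as higher and 5.73% as lower. It was lower on day 2 by -2.10 ± 0.35 (limma, adjusted p 0.00869), and this call was lost without the first day 0 control (-1.72, adjusted p 0.083), with pup sex as a covariate (-1.75, adjusted p 0.0581) and at the dimmer probe (-0.56, adjusted p 0.597). Igf2bp2 differed by -0.95 ± 0.27 (adjusted p 0.0501) and Ptn by -1.59 ± 0.53 (adjusted p 0.0817), both short of the threshold. The mutant and control changes share no arrays, and their difference is the interaction. It was 1.09 ± 0.47 for Mycn (adjusted p 0.334), 1.38 ± 0.61 for Mdk and -0.65 ± 0.24 for Afp (adjusted p 0.260). No member passed that test at its brightest probe, and 0.273% of all genes passed it.

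Of 12 tested genes of the machinery that makes, tails or uses let-7, among them Lin28a, Dicer1, Drosha, Tut4 and Dis3l2, none passed over both days (limma, adjusted), with a median difference of -0.11 against -0.05 over all genes. Ago2, which carries the microRNA to its target, came closest at -0.32 ± 0.11 (adjusted p 0.0771), and on day 2 alone it was the 1 gene of the 12 that passed, lower by -0.53 ± 0.14 (adjusted p 0.0349). Of all genes 6.61% passed as lower on day 2. Between birth and day 2, 4 of the 12 were lower in day 2 mutants and none was higher, where 11.3% and 9.44% of all genes were. In controls 1 was higher and 1 lower, where 5.54% and 5.73% of all genes were. Of 21 other known let-7 targets 3 were higher and 3 lower, with a median of -0.03. Ccnd1, cyclin D1, was higher by 2.80 ± 0.27 (adjusted p 0.000169), and E2f5, a transcription factor of the cell cycle, by 0.99 ± 0.13 (adjusted p 0.00101). Insr, the insulin receptor, was lower by -0.70 ± 0.15 (adjusted p 0.0148), and Gatm, an enzyme of creatine synthesis, by -0.63 ± 0.17 (adjusted p 0.0339).

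Over both days 8.83% of all genes passed as higher and 6.97% as lower, the background for these lists. For day 2 counts the shares were 9.68% and 6.61%. Of 15 genes of the Myc and Max network none was higher over both days and 2 were lower, Mxd1 at -0.57 ± 0.15 (adjusted p 0.0321) and Mycl at -0.81 ± 0.23 (adjusted p 0.0397), with a median of -0.13. Of 22 growth genes that Myc proteins are known to switch on, none was higher and 3 were lower, with a median of -0.10. On day 2 none was higher and 5 were lower, with a median of -0.34 against -0.09 over all genes. Several of the 22 are bright, Ldha at 7.27, 7.63 and 7.59 in day 2 mutants among them. Under this scaling the 50 brightest genes of the arrays were all lower in day 2 mutants, with a median of -0.52. The part of the scaling in the day 2 values of this list was not tested. Odc1, the first enzyme of polyamine synthesis, was lower by -0.45 ± 0.10 (adjusted p 0.0188), Tfrc, the transferrin receptor, by -1.05 ± 0.28 (adjusted p 0.0319), and Mcm5, of the replicative helicase, by -0.53 ± 0.15 (adjusted p 0.0381). Tfrc is also abundant in red cell precursors, whose 9 tested markers included 2 that were lower over both days and 6 on day 2; the part of those cells in this value was not tested.

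Of 18 genes for receptors or co-receptors of midkine and pleiotrophin, 4 were higher over both days and 3 were lower, with a median of 0.13. Ltk, a receptor tyrosine kinase close to Alk, read -2.70, -2.64 and -3.19 in day 2 mutants, against -5.93, -5.85 and -6.00 in day 2 controls, none of which was well above background. It was at least 8.47-fold higher in day 2 mutants, a bound against values below background, so no p-value is given. Gpc2, a heparan sulfate proteoglycan that binds midkine, was higher by 1.31 ± 0.14 (adjusted p 0.000317). Lrp1, a large endocytic receptor of hepatocytes, was lower by -0.76 ± 0.14 (adjusted p 0.00655), and Sdc4, a syndecan, by -0.74 ± 0.18 (adjusted p 0.0231). The brightest probe of Ptprz1, the receptor phosphatase for pleiotrophin, was saturated on 7 of 11 arrays, so no value is given. That probe is still among the 18 counted, and whether it reads Ptprz1 alone was not tested.

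Factors known to act on the Afp promoter moved in both directions. Of 15, 4 were higher over both days and 1 was lower, with a median of -0.10. Zhx2, a repressor of Afp after birth, was well above background in all mutants and in no control. It was at least 1.77-fold higher on day 2 and at least 1.71-fold higher at birth. Zhx2 entered the test, and the count of 4, only through the mutant groups, so no p-value is given for it. Nr5a2 was higher by 0.68 ± 0.15 (adjusted p 0.0162). Cebpa, a hepatocyte factor, was lower by -0.64 ± 0.13 (adjusted p 0.0117).

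Of 23 other oncofetal or hepatoblast genes 6 were higher and 4 lower over both days, with a median of 0.25. On day 2, 6 were higher and 5 lower, where 9.68% and 6.61% of all genes were. The 4 genes named next, by smallest p over both days, were all higher. Sox9 was higher by 4.30 ± 0.18 (adjusted p 4.76e-06) and Epcam by 3.46 ± 0.26 (adjusted p 4.25e-05), both of which also mark bile duct cells. Sox4, a progenitor transcription factor, was higher by 2.02 ± 0.22 (adjusted p 0.000366), and Peg3, an imprinted gene, by 1.21 ± 0.16 (adjusted p 0.00104). Sox9 and Epcam are also 2 of the 8 bile duct markers below.

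**Figure D5:**
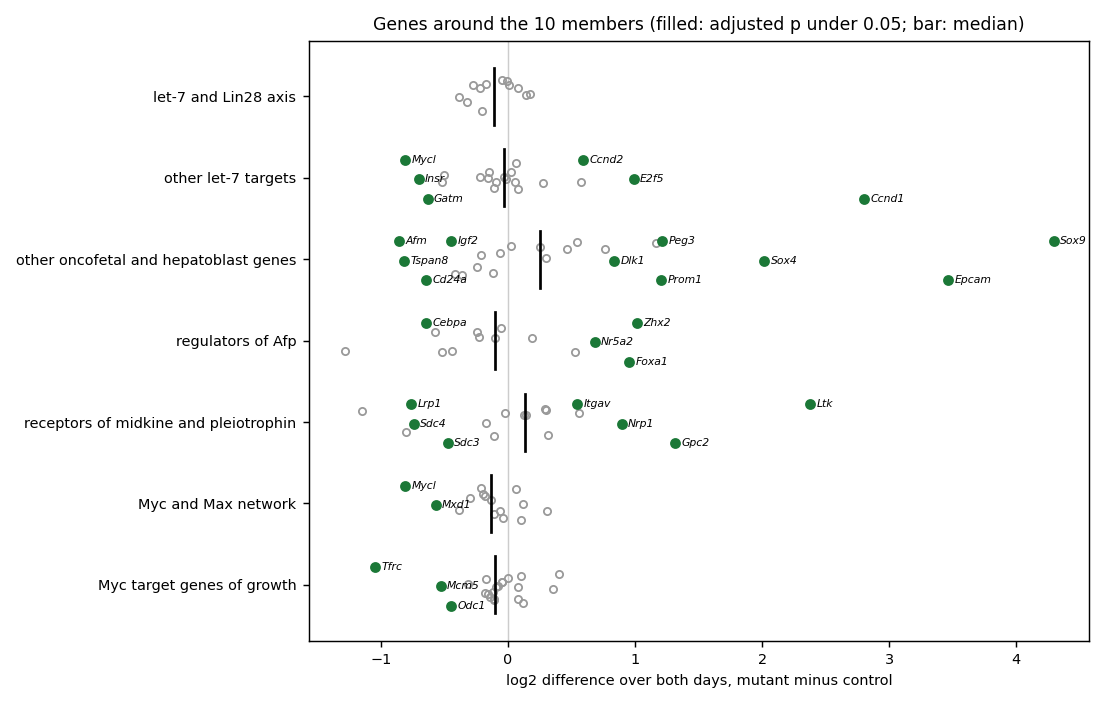
Mutant minus control difference over both days, on the log2 scale, for the genes of 7 lists around the 10 members; filled points have an adjusted p under 0.05, bars are medians of the whole lists, and 1 regulator of Afp is not drawn. Filled points lie on both sides of 0 in 4 of the lists, on the lower side alone in the Myc lists, and there is none among the let-7 and Lin28 genes.

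Among the marker lists of other cells, that of the bile duct rose along with the raised members. Of 8 bile duct markers 7 were higher over both days, where 8.83% of all genes were, and the median of the list was 2.28. Their summed signal relative to the array's percentile was 222 to 267 in day 2 mutants, against 9.73 to 17.2 in day 2 controls. In day 0 mutants it was 93.4 to 341, against 21.8 to 24.6 in day 0 controls. Most of that sum was Spp1 alone, at 7.90, 7.61 and 7.62 in day 2 mutants, against 3.85, 3.81 and 2.67 in day 2 controls. The size of the sum therefore describes Spp1 more than the list. Of 7 hepatocyte markers 3 were lower over both days, 5 on day 2 and 0 at birth, where 6.97%, 6.61% and 0.717% of all genes were. Their sum was 2017 to 2119 in day 2 mutants, against 2701 to 3655 in day 2 controls. At birth it was 3002 to 3894 in mutants, against 3412 to 3639 in controls, which overlapped. Most of this sum came from Alb, Ahsg, Fgb and Trf, which are about as bright as Afp. The 50 brightest genes were all lower in day 2 mutants under this scaling, with a median of -0.52. The part of the scaling in the day 2 counts and the sums of the hepatocyte markers was not tested. Mdk, Mycn, Hmga2, Igf2bp1 and Igf2bp2 were thus higher in the same livers in which duct markers were higher, and the part of those cells in the member values was not tested. Stellate and mesenchymal markers summed to 73.5 to 123 in day 2 mutants, against 64.8 to 73.0 in day 2 controls. On day 2, 2 of 12 passed as higher, where 9.68% of all genes did, and none passed over both days. The part of stellate and mesenchymal cells was not tested. Mesothelial markers summed to 84.1 to 139 in day 2 mutants, against 27.2 to 33.9 in day 2 controls. Most of that sum was Krt8, at 6.30, 7.09 and 6.58 in day 2 mutants, against 4.58, 4.87 and 4.95 in day 2 controls. Krt8, which epithelial cells also make, was the 1 of 6 higher over both days. The other 5 did not pass, and the median of the list was -0.13. The part of mesothelial cells was not tested. Of 6 endothelial, 7 macrophage and 9 blood stem and progenitor markers none was higher over both days. In these lists 1, 2 and 1 were lower, where 6.97% of all genes were.

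Across the 11 arrays the genes whose pattern was closest to each raised member were listed by Pearson correlation among 13798 genes above background on all arrays. Closest to Mycn were Rhoq (0.982), Tuft1 (0.977) and Anxa2 (0.972), and closest to Igf2bp2 were Plod2 (0.985), Entpd2 (0.977) and Hook2 (0.974). Tmem178 (0.972), Csrp2 (0.970) and Tspan17 (0.967) were closest to Mdk. For Hmga2 they were Tgm2 (0.967), Ubqln2 (0.966) and Fundc1 (0.964), and for Igf2bp1 Bbs5 (0.971), Gorab (0.963) and Pigx (0.948). The 5 raised members had no gene in common in these lists. Among the members themselves Mycn and Igf2bp2 were closest (0.962), and Lin28b ran opposite to Igf2bp2 (-0.906). The arrays fall into 4 groups of shared genotype and day, so these values describe the group pattern and are no test.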

How the data were processed

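Liver RNA of 11 samples was hybridised to 1-colour Agilent arrays. The deposited spot intensities were made with Feature Extraction 9.5.3.1, per the file headers, which subtracts background. A second deposited table holds log2 values, RMA per the submitters' processing notes, with settings not given in the sources used here; it was used as an alternative. Signals were divided by each array's 75th percentile and taken to log2; control spots and outlier spots were left out and repeat spots averaged. Probes were tested where all arrays of 1 or more groups had them well above background (27146 of 41174 probes), and a gene was read from its tested probe of highest mean. Symbols were updated through RefSeq for 23374 probes by accession, 6733 by symbol and 2919 by synonym, 1244 kept the file's symbol, and 6904 had none. Groups were compared with limma 3.58.1 in R 4.3.3, 4 group means, Benjamini-Hochberg over 15763 genes at 0.05, with 7 residual and 2.39 prior degrees of freedom. Probe by probe fits adjusted over all probes. Standard errors are from limma, and the number of arrays limits the precision. The procedure was tested on simulated data. Same-numbered day 2 arrays, which shared a slide, deviated together (correlations 0.279, 0.228 and 0.259; other pairs -0.210 to -0.0527), so the numbers were taken to pair them; at day 0 the values were 0.0601 and 0.0890. The members and lists were chosen with earlier results of these data known. All members are named, with up to 4 genes of each list by smallest p over both days; 1 gene under that rule is not reported here. Alternatives changed background, scaling, filter, probe, block, sex, weights and the arrays used. Probe positions are on mm8 as in the files, promoters on GRCm38.p6.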

Additional observations from a re-analysis of the deposited data

Results flagged for a closer look

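The Mdk probe at chr2:91730487-91730697 was singled out because its mutant minus control difference was larger on day 2 than at birth in a test of that difference, by 2.31 ± 0.34 on the log2 scale (limma, adjusted p 0.0379, fitted probe by probe). Its difference was 4.64 on day 2 and 2.33 at birth. The brightest Mdk probe gave 1.38 ± 0.61 (adjusted p 0.339) for the same test.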

How the results depend on the processing

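Over both days the number of the 10 genes called stayed between 4 and 7 under every alternative run, against 5 in the main analysis, and for the difference between days it was 0 under each, although the second Mdk probe passed by itself (2.31, adjusted p 0.0379). At birth, where 2 were called, the count was 1 with slide as a replicate block, 0 with pup sex as a covariate, 1 with only the groups compared, 1 when every tested probe had to pass, and 0 to 3 with 1 array left out, lowest without the second day 0 control. On day 2 it was 3 when every tested probe had to pass, against 5. For the postnatal change in controls, where 1 was called, the count was 2 with the percentile over detected probes, with only detected probes, with slide as a random block, with an intensity trend and with only the groups compared, 5 with array weights, 0 with sex as a covariate or when every probe had to pass, and 0 to 4 with 1 array left out. For the postnatal change in mutants, where 3 were called, it was 1 with quantile normalization and 0 to 3 with 1 array left out. The replicate block ended the Afp call on day 2 (adjusted p 0.0754), the Mycn call at birth (0.0654) and the Mycn postnatal call in mutants (0.0538), and it brought Igf2bp1 past the threshold on day 2 (0.0481); it changed no other call of a member. With quantile normalization the Afp difference turned to 0.0012 over both days, 0.034 on day 2, 0.066 between days and 0.018 in mutants after birth, and in the authors' table to 0.010 over both days. Hmga1 on day 2 turned to 0.21 with quantile normalization and 0.18 in the authors' table, and over both days it was -0.00038 with array weights and ran from -0.028 to 0.17 with 1 array left out. The Mycn difference between days was -0.44 at its dimmer probe. The causes were not tested. Signal over background limits the dimmer Mycn, Hmga2 and Lin28b probes.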
